A study of Homo sapiens with 4 samples.

Results

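The 10 genes described here encode the core of non-homologous end joining, and they were found by gene symbol among the 16717 entries of an RNA-Seq table of Cal-62 cells. The rule that picks them uses gene names and no measured value, but the members were chosen with earlier results of these data known. All 10 were present in the table and passed the filter on low values described below. The Ku heterodimer (XRCC5 and XRCC6) is the ring that slides onto a broken DNA end and recruits the kinase DNA-PKcs (PRKDC). DNA ligase IV (LIG4) with its partner XRCC4 and the factor XLF (NHEJ1) then seals the ends, after the nuclease Artemis (DCLRE1C), the polymerases lambda (POLL) and mu (POLM) and SETMAR, also called Metnase, have made them joinable where needed. The pathway repairs double-strand breaks without a template and works through most of the cell cycle, beside homologous recombination, which copies an intact sister.

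Cal-62 is an established cell line from an anaplastic thyroid carcinoma. Cells had been given Niraparib, which inhibits PARP1 and PARP2, in 2 libraries and its vehicle DMSO in the other 2, so that all 4 shared the line and differed in treatment. How much niraparib the cells of the RNA-Seq received, and for how long, is not stated for that assay in the sources used here. Nothing in the sources says whether the replicates were separate cultures, so the p-values measure only the spread between these 4 libraries, which may be technical. The values are TPM, a transcript level that the authors corrected for gene length and scaled to a near-constant total in each library. Depth is unknown in such values, and no counting interval can be given.

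Across the 13377 genes that reached 1 TPM in 2 or more libraries, niraparib and DMSO were compared as log2(TPM + 1) with limma, and a gene was called at an adjusted p under 0.05. Fold changes are on this scale, which understates the change of genes at low levels. By this rule 2780 genes were higher (20.8% of those tested) and 1559 were lower (11.7%), so 64.1% of the calls were higher. With median-of-ratios scaling 47.2% of the calls were higher. Fold changes followed the GC content of the transcripts, with Spearman's rho of 0.51 across 12513 genes that are not independent replicates. PAX8, a thyroid transcription factor, stood at 196 to 207 TPM with niraparib and 189 to 191 TPM with DMSO. Of the epithelial markers, the keratins KRT8 and KRT18 were above 1000 TPM in each library and moved in opposite directions (log2 fold changes 0.14 and -0.11, limma adjusted p = 0.0209 and 0.0421), and CDH1 did not exceed 0.28 TPM. The mesenchymal markers VIM and FN1 averaged 2302 and 1777 TPM with niraparib and 2027 and 1125 TPM with DMSO, and both rose (0.18 and 0.66, limma adjusted p = 0.00613 and 0.00109). CDH2, also on the mesenchymal list, had 17.3 and 18.0 TPM with niraparib, against 18.2 and 18.6 TPM with DMSO. Neither CDH2 nor the epithelial marker EPCAM passed (-0.058 and 0.049, limma adjusted p = 0.626 and 0.653). Of 4 leukocyte markers CD68, which other cells also express, was the only one in the table, with 31.3 and 36.3 TPM with niraparib against 20.1 and 19.6 TPM with DMSO, and the part of these markers in the results was not tested.

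The core genes were expressed at very unequal levels. XRCC6, PRKDC and XRCC5 together held 92.7% of the summed core TPM in each niraparib library, and 93.8% and 93.2% in the DMSO libraries. The 7 other genes summed to 54.0 and 57.6 TPM with niraparib, against 56.1 and 59.8 TPM with DMSO. LIG4 was the lowest core gene in all 4 libraries. Its mean lay at the 6.48th percentile of the tested genes with niraparib and at the 21.4th percentile with DMSO, whereas that of XRCC6 lay at the 97.7th percentile with niraparib and at the 98.1st with DMSO. In TPM, XRCC6 stood 320-fold and 213-fold above LIG4 in the niraparib libraries and 143-fold and 156-fold above it in the DMSO libraries. Going down the order of the means, XRCC6, PRKDC, XRCC5 and POLL did not overlap with the next gene in either treatment. In the middle of the order each gene overlapped with the next, along POLM, NHEJ1, SETMAR, XRCC4 and DCLRE1C with niraparib, and along NHEJ1, XRCC4, POLM and DCLRE1C with DMSO. Genes farther apart in it were separate in places, as POLM lay above SETMAR, XRCC4 and DCLRE1C in both niraparib libraries, and NHEJ1 above DCLRE1C in all 4 libraries.

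**Figure D1:**
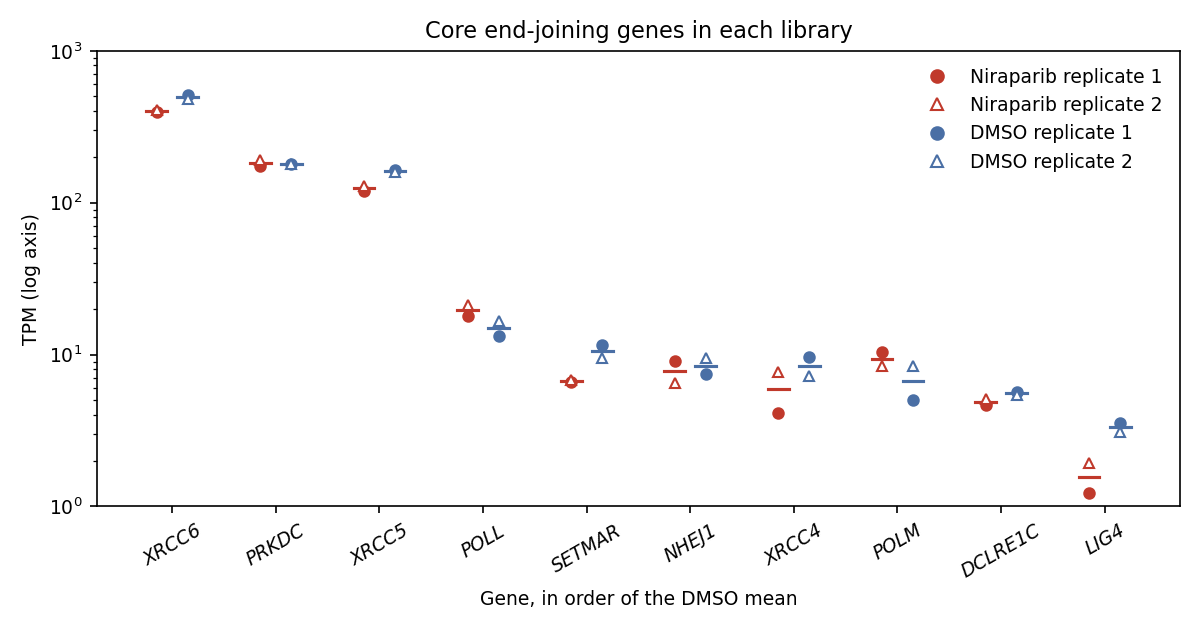
TPM of the 10 core genes in each library on a log axis, with genes in order of their DMSO mean, niraparib on the left of each pair and DMSO on the right; points are libraries and short lines are group means. XRCC6, PRKDC and XRCC5 lie far above the other 7 genes, of which POLL is highest at 21.2 TPM, with LIG4 lowest in both treatments.

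Both Ku genes fell after niraparib. XRCC5, the larger Ku subunit (Ku80), is annotated in GRCh37 at 216972187 to 217071026 of chromosome 2, plus strand. It had 120 and 128 TPM in the niraparib libraries, against 164 and 159 TPM in the DMSO libraries, and the groups did not overlap. This is a mean of 124 ± 6.14 TPM with niraparib and 161 ± 3.89 TPM with DMSO (SD, n = 2 each), a decrease of 23.1%. Its log2 fold change was -0.38 (95% interval -0.52 to -0.24, limma adjusted p = 0.00852). XRCC5 passed the test in all 16 settings that were run, with an adjusted p between 0.00541 and 0.0448.

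XRCC6, the smaller subunit (Ku70), is annotated in GRCh37 at 42017167 to 42060052 of chromosome 22, plus strand. It had 393 and 408 TPM with niraparib, against 508 and 481 TPM with DMSO, again without overlap. The means were 401 ± 10.8 TPM with niraparib and 494 ± 18.7 TPM with DMSO (SD, n = 2 each). On the log2 scale the difference was -0.30 (95% interval -0.41 to -0.19, limma adjusted p = 0.00820). XRCC6 missed the threshold only where limma was run with neither trend nor robust priors (adjusted p = 0.0626) and was called in the other 15 settings. The Ku proteins work as a heterodimer, and the ratio of XRCC6 to XRCC5 was 3.29 and 3.18 with niraparib, against 3.09 and 3.03 with DMSO. The summed Ku level was 513 and 537 TPM with niraparib and 672 and 640 TPM with DMSO. XRCC6 has processed pseudogenes, of which XRCC6P4 and XRCC6P5 are in the table and did not exceed 0.19 TPM. How the authors assigned reads shared with them is not given in the sources used here.

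PRKDC, on chromosome 8, encodes the catalytic subunit that joins Ku to form the active DNA-dependent protein kinase. It had 174 and 191 TPM with niraparib, against 181 and 180.1 TPM with DMSO, so that the DMSO libraries lay between the niraparib libraries. PRKDC did not pass the test, with a log2 fold change of 0.017 (95% interval -0.13 to 0.16, limma adjusted p = 0.842). The interval leaves out a decrease as large as the value of either Ku gene. Its sign was negative with median-of-ratios scaling (-0.084), with upper-quartile scaling (-0.037) and without niraparib replicate 2 (-0.048), and it was not called in any setting. Within each library the ratio of PRKDC to XRCC5 was 1.46 and 1.49 with niraparib, against 1.10 and 1.14 with DMSO. These ratios did not overlap between the treatments, but with 2 libraries a group an exact permutation test cannot give a two-sided p below 0.333.

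The ligase group held the largest relative decrease and also the values with the widest spread. LIG4, annotated in GRCh37 at 108859787 to 108870716 of chromosome 13, minus strand, had 1.23 and 1.92 TPM with niraparib, against 3.54 and 3.09 TPM with DMSO. The groups did not overlap. The niraparib mean was 0.475 times the DMSO mean, whereas the log2(TPM + 1) scale gave a log2 fold change of -0.76 (95% interval -1.27 to -0.25, limma adjusted p = 0.0412). With a pseudocount of 0.1 it was -1.06 (adjusted p = 0.0470). LIG4 passed in 8 of the 16 settings. The p was over the threshold without niraparib replicate 1 (adjusted p = 0.136), and without DMSO replicate 1 or replicate 2 (0.159 and 0.101), and after the GC adjustment (at -0.51 with an adjusted p of 0.0953, and centred at -0.57 with an adjusted p of 0.0691). LIG4 and SETMAR, and NBN and DCLRE1A among the genes below, were also picked by the study from these same libraries as representative genes, so their direction here is not independent evidence. The study also reports a qPCR check of differential genes, and its main text does not name the genes checked.

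XRCC4, the scaffold that stabilises DNA ligase IV, had 4.10 and 7.71 TPM with niraparib, against 9.60 and 7.27 TPM with DMSO. Niraparib replicate 2 lay between the DMSO libraries. The difference of -0.49 on the log2 scale did not pass (95% interval -1.21 to 0.23, limma adjusted p = 0.238) and went from -0.10 without niraparib replicate 1 to -0.88 without niraparib replicate 2. The ratio of LIG4 to XRCC4 was 0.300 and 0.249 with niraparib and 0.369 and 0.425 with DMSO. NHEJ1, or XLF, bridges the ends together with XRCC4. It had 9.04 and 6.52 TPM with niraparib, against 7.43 and 9.46 TPM with DMSO, and the groups overlapped. NHEJ1 did not pass, at -0.11 (95% interval -0.60 to 0.38, limma adjusted p = 0.685), and its value was above 0 without niraparib replicate 2 and without DMSO replicate 2.

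Among the enzymes that process ends, SETMAR fell and the others did not pass the test. SETMAR, a primate fusion of a histone methyltransferase domain with a mariner transposase, is annotated in GRCh37 at 4345016 to 4358949 of chromosome 3, plus strand. It had 6.60 and 6.81 TPM with niraparib, against 11.6 and 9.52 TPM with DMSO. The niraparib libraries lay close together and below both DMSO libraries. The difference was -0.58 on the log2 scale (95% interval -0.92 to -0.24, limma adjusted p = 0.0281). The call held in 12 of 16 settings. Among these were the GC adjustment (at -0.52 with an adjusted p of 0.0378) and its centred form (at -0.58 with an adjusted p of 0.0264). With the replicate block added to the GC adjustment SETMAR missed the threshold (-0.52, adjusted p = 0.0548). Leaving out niraparib replicate 1, niraparib replicate 2 or DMSO replicate 1 gave adjusted p of 0.107, 0.0823 and 0.132. The genome holds many mariner copies, and how reads from such repeats were assigned is not given in the sources used here.

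DCLRE1C encodes Artemis, the nuclease that opens hairpins and trims ends once DNA-PKcs has activated it. It had 4.67 and 5.11 TPM with niraparib, against 5.70 and 5.43 TPM with DMSO. The groups did not overlap, yet at -0.16 on the log2 scale DCLRE1C missed the threshold (95% interval -0.49 to 0.18, limma adjusted p = 0.398). After the GC adjustment it was 0.00019.

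POLL, which fills gaps at aligned ends, had 17.8 and 21.2 TPM with niraparib, against 13.2 and 16.6 TPM with DMSO. All niraparib values were above the DMSO values. The log2 fold change of 0.37 had an unadjusted p of 0.0499 in limma and did not pass after adjustment (95% interval 0.00024 to 0.74, adjusted p = 0.111). POLM, which can add nucleotides across unpaired ends, had 10.5 and 8.35 TPM with niraparib, against 5.01 and 8.42 TPM with DMSO. The groups overlapped, and DMSO replicate 1 stood apart from the other 3 libraries. The log2 fold change of POLM was 0.46 (95% interval -0.16 to 1.08, limma adjusted p = 0.203), or 0.14 without DMSO replicate 1. After the GC adjustment POLL was at 0.18 and POLM at 0.19. With transcript GC contents of 55.8% and 61.5% these are the core genes richest in GC, while XRCC4 at 36.7% and LIG4 at 39.8% are the poorest.

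Counted together, 4 of the 10 core genes fell (XRCC5, XRCC6, LIG4 and SETMAR), against 11.7% lower among all genes tested, and 0 rose, against 20.8%. The core genes and the accessory and microhomology lists below were chosen with earlier results known, so such counts are a description only. At an unadjusted p under 0.05 in limma, 4 were lower and 1 was higher. The niraparib and DMSO libraries did not overlap for 6 core genes, against 70.9% of all genes tested; 5 of them were lower, against 29.0%, and 1 was higher, against 41.9%. The median log2 fold change of the 10 genes was -0.23, against 0.072 over all genes, and with median-of-ratios scaling it was -0.32, against -0.018. After the GC adjustment it was -0.12, against 0.069. The number of core genes that fell was 2 without niraparib replicate 1, where 5.02% of all genes were called lower, and 2 without DMSO replicate 1, where 4.69% were, and XRCC5 and XRCC6 were the genes called in both.

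**Figure D2:**
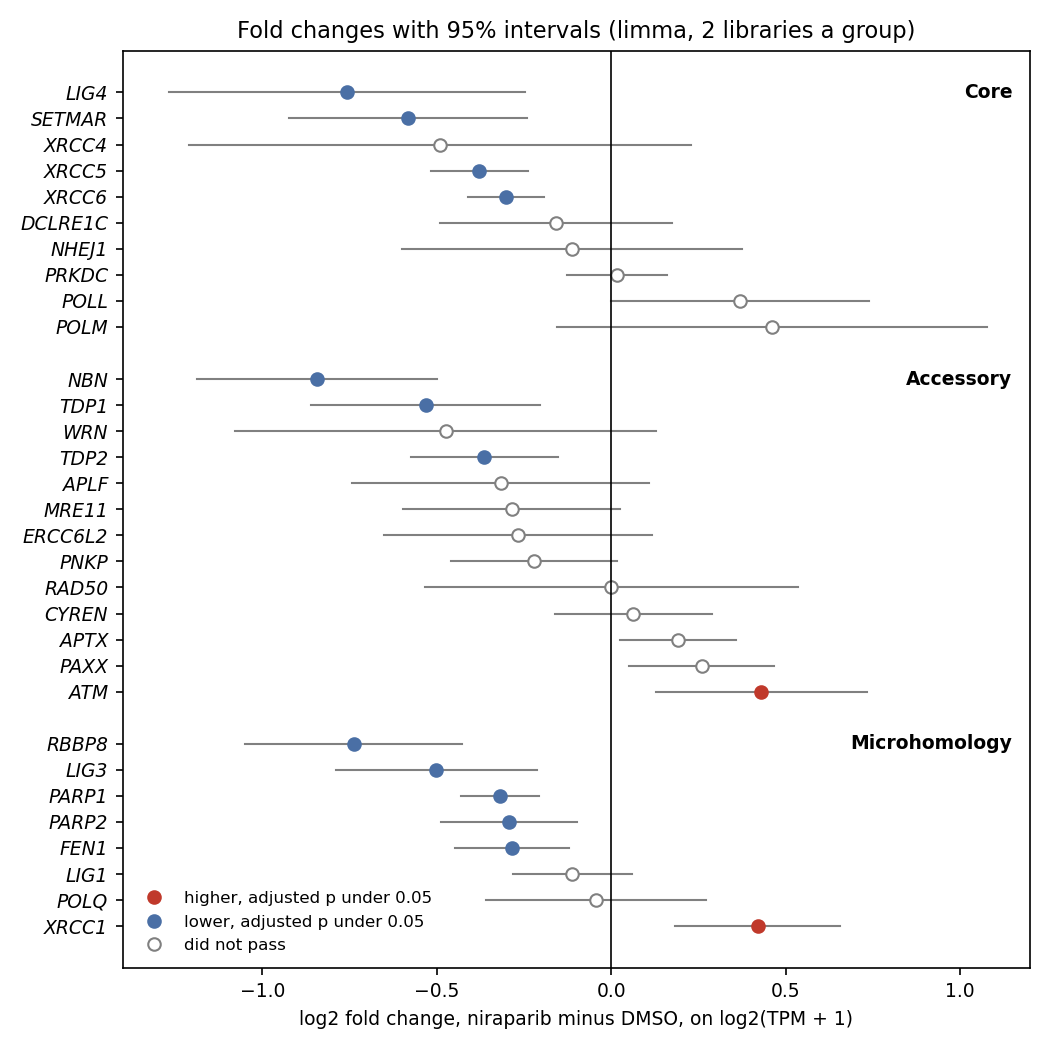
Log2 fold change of niraparib over DMSO on log2(TPM + 1) for the core, accessory and microhomology genes; bars are limma 95% intervals with 2 libraries a group, and filled points passed an adjusted p of 0.05. Of the core genes 4 lie below 0 and passed, with the narrowest intervals for XRCC5 and XRCC6, and POLL and POLM lie above 0 without passing.

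**Figure D3:**
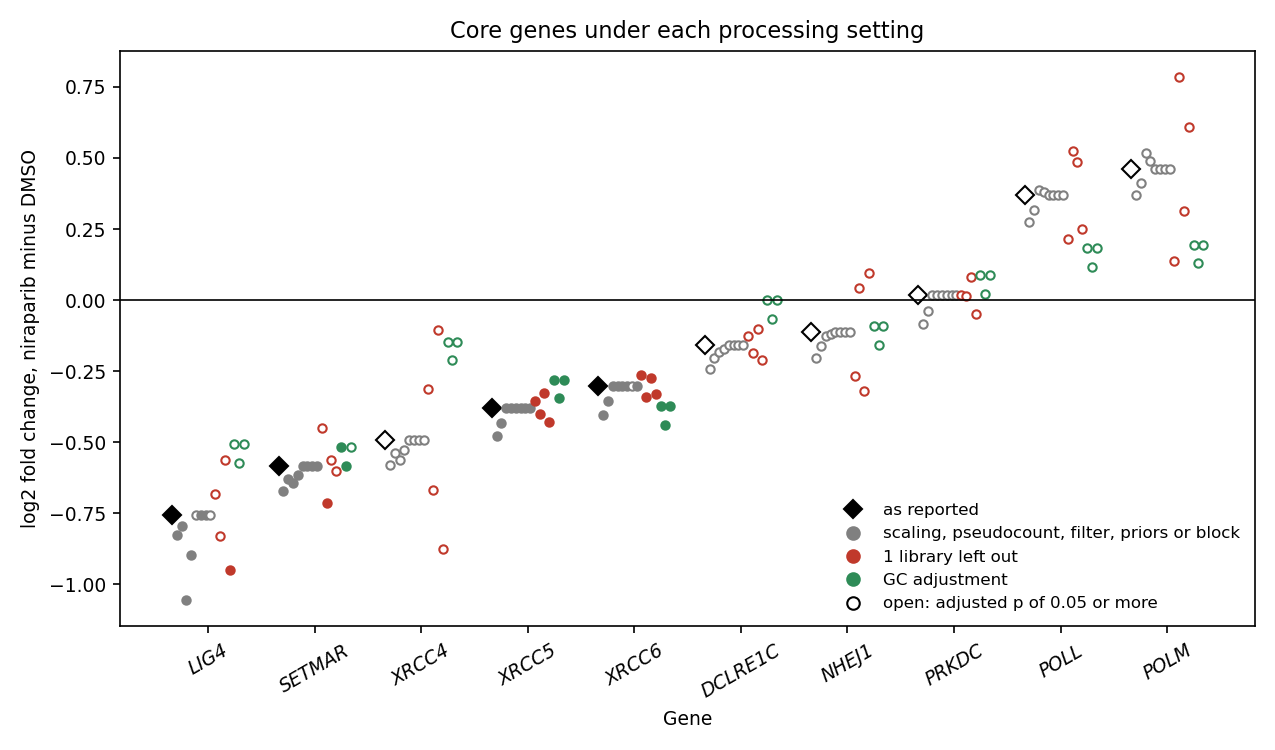
Log2 fold change of each core gene under the 16 processing settings, 1 point a setting, filled where the adjusted p was under 0.05. XRCC5 is filled in all 16 settings, XRCC6 in 15, SETMAR in 12 and LIG4 in 8, and no other core gene is filled in any.

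Of the core genes, 5 begin within 1000 bases of a protein-coding gene on the opposite strand that is read in the other direction. The nearest annotated starts of protein-coding transcripts in GRCh37 were 7 bases apart for PRKDC and MCM4, 24 for LIG4 and ABHD13, 39 for POLL and DPCD, 104 for XRCC4 and TMEM167A and 120 for XRCC6 and DESI1. For LIG4, XRCC4, POLL and XRCC6 the sequence before the start is shown, since in RefSeq it lies between the genes whose values are set side by side next. RefSeq places some starts elsewhere than the GRCh37 annotation, so the stretches are longer than these distances. They are the bases before the first listed start of the core gene in RefSeq on GRCh38.p14, at most 250, as far as the next RefSeq gene, 5′ to 3′ on the strand of the core gene.
XRCC6: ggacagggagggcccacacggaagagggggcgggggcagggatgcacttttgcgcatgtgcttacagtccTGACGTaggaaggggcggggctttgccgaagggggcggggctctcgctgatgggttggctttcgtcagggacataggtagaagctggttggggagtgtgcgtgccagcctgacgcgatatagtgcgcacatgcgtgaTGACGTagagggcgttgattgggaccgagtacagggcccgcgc
LIG4: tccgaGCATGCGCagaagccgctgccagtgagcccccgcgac
XRCC4: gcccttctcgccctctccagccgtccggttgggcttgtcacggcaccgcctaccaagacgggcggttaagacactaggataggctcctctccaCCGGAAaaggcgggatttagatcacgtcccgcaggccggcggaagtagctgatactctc
POLL: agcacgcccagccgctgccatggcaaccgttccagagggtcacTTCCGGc
The capitals mark TGACGT, the core of a cyclic AMP response element, in XRCC6, GCATGCGC, the core of an NRF1 site, in LIG4, and CCGGAA, the core of an ETS site, on either strand in XRCC4 and POLL. Of 6 motifs searched on both strands, 1 was put in capitals for each gene after the matches had been seen, and a match is a description of the letters only. Among the 250 bases before the start, TGACGT was present in 7.10% of 35116 RefSeq windows, GCATGCGC in 2.63% and CCGGAA in 14.5%. The others were GGGCGG, an SP1 core present in 42.6% of windows and left in lower case in XRCC6 and XRCC4, CCAAT in 32.0%, with 1 match in XRCC6 also in lower case, and the E2F forms TTTGGCGC or TTTCCCGC in 1.93%. The stretches are 250 bases for XRCC6 (chr22:41621045-41621294), 42 for LIG4 (chr13:108218350-108218391), 152 for XRCC4 (chr5:83077395-83077546) and 50 for POLL (chr10:101588271-101588320). Of the 10 core genes, 8 had an entry among the RefSeq promoters used here, and XRCC5 and PRKDC had none. LIG4 has further RefSeq starts inside the gene, and in the windows before those GCATGCGC was absent, while some held 2 matches of TGACGT.

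The neighbours did not all move with the core gene beside them. MCM4, a subunit of the replicative helicase, had 127 and 123 TPM with niraparib, against 156 and 173 TPM with DMSO, and fell (log2 fold change -0.39, limma adjusted p = 0.0115), while PRKDC was at 0.017. Without niraparib replicate 1 or replicate 2 MCM4 missed the threshold (adjusted p = 0.0526 and 0.0530). DESI1, a peptidase gene, had 15.4 and 16.1 TPM with niraparib, against 17.2 and 15.3 TPM with DMSO. DESI1 did not pass, at -0.042 (95% interval -0.29 to 0.21, limma adjusted p = 0.773), while XRCC6 fell. ABHD13 had 2.89 and 3.05 TPM with niraparib, against 4.34 and 3.91 TPM with DMSO, without overlap. The log2 fold change of ABHD13 was -0.37 (limma adjusted p = 0.115), of the same sign as that of LIG4. DPCD had 58.8 and 83.3 TPM with niraparib, against 44.3 and 51.1 TPM with DMSO, and like POLL its libraries did not overlap (log2 fold change 0.55, limma adjusted p = 0.0639). TMEM167A was at -0.20 (limma adjusted p = 0.482), with niraparib replicate 1 at 22.4 TPM and the other 3 libraries between 31.6 and 34.6 TPM. In XRCC4 too, niraparib replicate 1 had the lowest value. After the GC adjustment ABHD13 and TMEM167A changed sign, whereas LIG4 and XRCC4 stayed negative. Whether the fold changes within a pair differ was not tested.

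**Figure D4:**
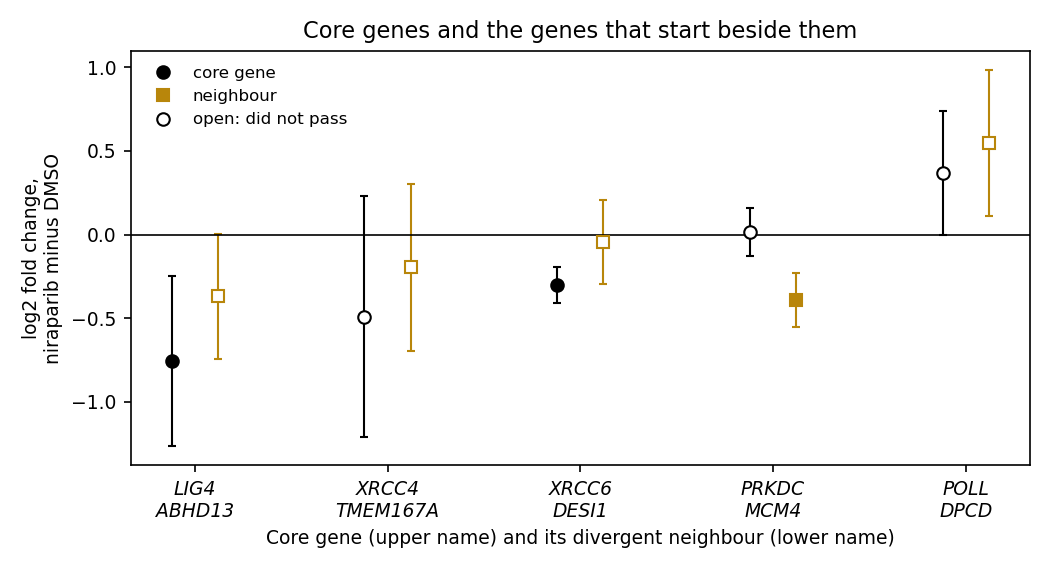
Log2 fold change of niraparib over DMSO for 5 core genes (circles) and the gene that starts beside each on the opposite strand (squares), with limma 95% intervals and filled symbols at an adjusted p under 0.05. PRKDC and MCM4 show the member near 0 and the neighbour below 0, XRCC6 and DESI1 the opposite, and LIG4, XRCC4 and POLL lie on the same side of 0 as their neighbours.

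Some core genes also overlap a gene on the other strand, and the sources used here do not say that the counting used strand. All of POLL lies within the annotated span of DPCD and all of SETMAR within that of SUMF1 in the GRCh37 annotation, while DCLRE1C shares 6957 bases with SUV39H2 and XRCC4 shares 366 with TMEM167A. In RefSeq on GRCh38.p14 POLL and XRCC4 start outside these neighbours. Reads from shared exons could not be told apart without strand. SUMF1 had 15.8 and 18.1 TPM with niraparib, against 14.1 and 17.1 TPM with DMSO, and did not pass (log2 fold change 0.11, limma adjusted p = 0.550), whereas SETMAR fell. SUV39H2, a histone methyltransferase, had 6.47 and 7.64 TPM with niraparib, against 11.8 and 10.5 TPM with DMSO, and fell (log2 fold change -0.59, limma adjusted p = 0.0254), whereas DCLRE1C did not pass. The SUV39H2 call was lost without niraparib replicate 1 or either DMSO library (adjusted p between 0.0615 and 0.116).

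The accessory factors of end joining moved in both directions. Of 13 genes, 3 fell, against 11.7% of all genes tested, 1 rose, against 20.8%, and 9 did not pass, with a median log2 fold change of -0.27, against 0.072 over all genes. NBN, the subunit of the MRE11 complex that signals to ATM, had 6.91 and 8.74 TPM with niraparib, against 15.1 and 14.4 TPM with DMSO (log2 fold change -0.84, limma adjusted p = 0.0109). NBN was called in 15 of the 16 settings, at -0.48 after the GC adjustment (adjusted p = 0.0345), and missed the threshold with the replicate block added to it (adjusted p = 0.0539). The other subunits did not pass. MRE11 was at -0.28 (adjusted p = 0.135 in limma), with 10.04 and 11.8 TPM with niraparib against 14.2 and 12.8 TPM with DMSO, and RAD50 had 5.61 and 8.59 TPM with niraparib against 7.60 and 6.37 TPM with DMSO. TDP1 and TDP2, which release topoisomerases trapped on DNA ends, fell with log2 fold changes of -0.53 and -0.36 (limma adjusted p = 0.0325 and 0.0271). The TDP1 call was lost without either niraparib library and without DMSO replicate 1 (highest adjusted p = 0.130), and that of TDP2 without niraparib replicate 1 and without either DMSO library (between 0.0837 and 0.103). After the GC adjustment TDP2 was at -0.13 and did not pass (adjusted p = 0.222). ATM, the kinase that answers to double-strand breaks, rose, with 14.7 and 15.8 TPM with niraparib against 12.02 and 10.1 TPM with DMSO (log2 fold change 0.43, limma adjusted p = 0.0459). Its call was lost without each of the 4 libraries in turn (adjusted p between 0.0655 and 0.184) and with median-of-ratios scaling (0.34, adjusted p = 0.0895). PAXX, which has the fold of XRCC4 and XLF and helps Ku hold the ends, had 44.4 and 48.8 TPM with niraparib, against 37.1 and 40.4 TPM with DMSO. The difference of 0.26 on the log2 scale did not pass (limma adjusted p = 0.0646) and was -0.052 after the GC adjustment. WRN, a helicase and nuclease that Ku stimulates, was at 3.87 and 3.86 TPM with niraparib and at 7.48 and 4.39 TPM with DMSO, and passed only without DMSO replicate 2 (-0.80, adjusted p = 0.0488).

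Microhomology-mediated end joining, the backup route that anneals short repeats at resected ends, had 5 lower and 1 higher of 8 genes, against 11.7% and 20.8% of all genes tested, with a median of -0.29, against 0.072. RBBP8, or CtIP, which starts the resection that turns ends away from Ku, had 10.7 and 10.4 TPM with niraparib, against 16.6 and 20.2 TPM with DMSO. It fell by 0.74 on the log2 scale (limma adjusted p = 0.0119), and missed the threshold when either niraparib library was left out (adjusted p of 0.0569 and 0.0510). LIG3, the ligase of this route, had 15.8 and 15.1 TPM with niraparib, against 24.4 and 20.3 TPM with DMSO (log2 fold change -0.50, limma adjusted p = 0.0268). Its partner XRCC1 moved the other way, with 46.6 and 41.0 TPM with niraparib against 31.0 and 33.9 TPM with DMSO (log2 fold change 0.42, limma adjusted p = 0.0253). Neither call held throughout: LIG3 lost its own without either niraparib library and without DMSO replicate 1 (adjusted p between 0.0881 and 0.116), and XRCC1 without niraparib replicate 1 and without either DMSO library (between 0.0540 and 0.106). After the GC adjustment XRCC1 was at 0.19 and did not pass (adjusted p = 0.123). The ratio of XRCC1 to LIG3 was 2.95 and 2.72 with niraparib, against 1.27 and 1.67 with DMSO. PARP1 and PARP2, the targets of the drug, and the flap nuclease FEN1 fell with log2 fold changes of -0.32, -0.29 and -0.28 (limma adjusted p = 0.00770, 0.0391 and 0.0264). PARP1 was called in all 16 settings, whereas PARP2 missed the threshold without any 1 library (adjusted p between 0.0709 and 0.195) and FEN1 without niraparib replicate 1 or either DMSO library (between 0.0704 and 0.112). POLQ, the polymerase that defines the route, had 6.75 and 6.15 TPM with niraparib, against 6.46 and 6.88 TPM with DMSO, and at -0.043 on the log2 scale missed the threshold (95% interval -0.36 to 0.27, limma adjusted p = 0.817).

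Set beside their relatives, LIG4 and LIG3 fell among the 3 DNA ligases, whereas LIG1, the replicative ligase, had 40.2 and 41.2 TPM with niraparib, against 42.9 and 45.2 TPM with DMSO (log2 fold change -0.11, limma adjusted p = 0.255), and fell after the GC adjustment (-0.31, adjusted p = 0.0269). The 3 polymerases of family X that were tested all had positive values. POLB, the polymerase of base excision repair, had 25.8 and 25.1 TPM with niraparib, against 19.6 and 20.9 TPM with DMSO, and rose (log2 fold change 0.31, limma adjusted p = 0.0381), while POLL and POLM did not pass. The POLB call was lost without each of the 4 libraries in turn (adjusted p between 0.0831 and 0.178) and with median-of-ratios scaling (0.22, adjusted p = 0.0960). Their lymphoid relative DNTT was not analysed here. RAG1, which cuts DNA for V(D)J recombination in lymphocytes, did not exceed 0.20 TPM in any library. Of the nucleases related to Artemis, DCLRE1A was at -0.40 (limma adjusted p = 0.0840) and DCLRE1B at -0.036 (adjusted p = 0.814). Among the kinases of the family of DNA-PKcs, ATM rose, and PRKDC, ATR (-0.20), MTOR (0.14), SMG1 (-0.052) and TRRAP (0.23) did not pass, with limma adjusted p between 0.105 and 0.842. PRKDC was expressed above the other 5 by level in TPM, none of which exceeded 25.4 TPM in any library.

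XRCC6 had the smallest p of the core genes. The 3 tested genes whose centred log2(TPM + 1) values over the 4 libraries lay nearest to its own were RPL24, a ribosomal protein gene (distance 0.016), HNRNPC, which binds nascent RNA (0.016), and TM2D1 (0.017). Their log2 fold changes of -0.29, -0.29 and -0.30 follow from that choice, and TM2D1 did not pass (limma adjusted p = 0.0551). Adjusted for GC they were at -0.20, -0.023 and -0.051, against -0.37 for XRCC6. With 4 libraries in 2 treatments this likeness is a description of these values alone.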

How the data were processed

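RNA-Seq of Cal-62 cells was analysed in 4 libraries, 2 treated with niraparib and 2 with DMSO, grouped by their titles. According to the methods, the authors trimmed reads with Trim Galore and aligned them with STAR to hg19, whereas HISAT2, hg38 and mm10 stand beside Trim Galore in the notes of the submitters. The deposited table holds TPM that the authors had computed, with totals of 994264 to 995353 a library, although the table is named for counts. The tool and annotation behind them are not given in the sources used here. TPM keeps no depth, so precision rests on the spread between libraries.

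Fits used limma 3.58.1 in R 4.3.3 with trend and robust priors on log2(TPM + 1), without further scaling, and Benjamini-Hochberg adjustment over the 13377 genes that reached 1 TPM in 2 or more libraries. Table entries that repeat a symbol (12) were kept. The fit was tested on simulated data. GC content is that of the longest transcript in GENCODE release 44 on GRCh37, which 88.8% of entries matched by symbol or synonym. In the GC adjustment, a loess trend (span 0.5) on GC was taken from each library's deviation from the gene mean. The alternatives also changed scaling, pseudocount, filter, priors and libraries, or added the replicate number as a block. Named genes are the core members, tested relatives, up to 4 genes with the smallest p in each list and others called, neighbours by distance, and the 3 genes nearest to the core member with the smallest p. MRE11, RAD50, PAXX, WRN, POLQ, SUMF1 and SUV39H2 were named after their values were seen. The members and lists were chosen with earlier results of these data known. RAG2, DNTT and most leukocyte, endothelial and thyroid markers on the lists were not analysed here.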

Additional observations from a re-analysis of the deposited data

How the results depend on the processing

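Over 48 named genes and 15 alternatives, 578 of 720 values kept their direction and their side of the threshold, 83 lost a call, 15 gained one and 44 changed sign, none of the last among genes that had passed the test. Changing only the filter or the priors, or adding only the replicate block, leaves fold changes as reported, so their direction could not change there. The number of core genes that fell was 4 as reported, 2 to 3 without 1 library, and 2 with the replicate block with the GC adjustment. No core gene was called higher in any setting. Accessory factors that fell numbered 3 as reported, 1 without trend or robust priors and 1 to 3 without 1 library. The 1 that rose (ATM) became 0 with median-of-ratios or upper-quartile scaling, with no filter, without trend or robust priors, with the replicate block and without any 1 library (0 to 0), and 3 after the GC adjustment. Microhomology genes that fell numbered 5 as reported, 2 without trend or robust priors and 1 to 3 without 1 library. The 1 that rose (XRCC1) became 0 without trend or robust priors and in the 3 settings with a GC adjustment, and was 0 to 1 without 1 library. Over all genes, 1559 lower and 2780 higher calls became 627 to 1159 lower and 1197 to 1616 higher without 1 library. Without trend or robust priors 1017 were lower, and 1507 were higher after the centred GC adjustment and 1659 with the replicate block with the GC adjustment. Where 1 library of a group was left, it was assumed to vary like the other group, and the cause of these differences was not tested.

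Same-numbered libraries did not deviate together (Pearson r of -0.015 across genes between the replicate differences of the treatments), and no source pairs them. With the replicate block alone 3 core genes fell, without LIG4 (adjusted p = 0.0585), with 1339 lower and 2400 higher genes in all.

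Sign changes were all in genes that had not passed. With median-of-ratios scaling PRKDC was at -0.084, CYREN at -0.035 and RAD50 at -0.088, and with upper-quartile scaling PRKDC was at -0.037 and RAD50 at -0.047. RAD50 was at -0.0029 with a pseudocount of 0.1 and at -0.0014 with 0.5. After the GC adjustment, with or without the replicate block, DCLRE1C was at 0.00019, PAXX at -0.052, APLF at 0.014, MRE11 at 0.010, POLQ at 0.16, DCLRE1B at 0.0084, ATR at 0.048, SMG1 at 0.081, ABHD13 at 0.016 and TMEM167A at 0.16. When also centred, PAXX was at -0.12, POLQ at 0.099, MTOR at -0.033, SMG1 at 0.015 and TMEM167A at 0.095. Without 1 library the values ran from -0.048 to 0.081 for PRKDC, -0.32 to 0.097 for NHEJ1, -0.022 to 0.15 for CYREN, -0.27 to 0.27 for RAD50, -0.10 to 0.016 for POLQ, -0.11 to 0.040 for DCLRE1B, -0.14 to 0.033 for SMG1, -0.12 to 0.036 for DESI1, -0.020 to 0.24 for SUMF1 and -0.50 to 0.11 for TMEM167A.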
